A study of Mus musculus with 12 samples.

Results

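The genes described here are 10 small nucleolar RNA host genes, Snhg1, Snhg3, Snhg5, Snhg6, Snhg8, Snhg11, Snhg12, Gas5, Zfas1 and Epb41l4aos, taken by symbol from the 48795 gene IDs of a count table of mouse dorsal root ganglion (DRG) cultures. All 10 were found and all 10 passed the filter on low counts. The ganglion holds the cell bodies of sensory neurons with their glia. All cultures came from C57/Bl6 wild-type mice, whose age was not stated. The 4 ASO mix cultures received antisense oligonucleotides (ASOs, short synthetic nucleic acid strands designed to pair with 1 target RNA) against GI-SINE RNA, transcripts of B2 repeats that the study calls growth inducing, at 50 nM. The 4 control ASO cultures received an ASO Control at 50 nM, and 4 cultures were left untransfected. Each of 4 mice gave 1 preparation that was shared out over the 3 conditions, so the mouse pairs the libraries.

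Small nucleolar RNAs (snoRNAs) guide the chemical modification or the cutting of ribosomal RNA in the nucleolus. Those with C and D boxes guide methylation of the ribose, and those with H and ACA boxes mostly guide the change of uridine to pseudouridine. Most are trimmed from the introns of longer RNAs. Some of these hosts code for ribosomal or nucleolar proteins, while others, such as Gas5 and Snhg1, have a spliced RNA that codes for little, often starts with a run of pyrimidines like the ribosomal protein mRNAs do, and is degraded by nonsense-mediated decay when ribosomes read it.

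The hosts and ribosomal protein genes called with the ASO mix against the control ASO were all higher. Ribosomal protein genes are known for a run of pyrimidines at their start, so the host starts were searched for one. The starts of 7 of the hosts are shown, among them Snhg5 and Snhg11, which were not called. Each is the 100 bases from 50 before to 50 after a RefSeq start (build GRCm38.p6), written 5′ to 3′ on the gene's strand, with the longest unbroken run of C and T that touches the 10 bases on either side of the start in capitals.
Snhg8, chr3:123508287-123508386, minus strand: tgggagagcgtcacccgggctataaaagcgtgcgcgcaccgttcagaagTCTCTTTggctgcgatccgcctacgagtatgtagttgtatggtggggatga
Snhg12, chr4:132308628-132308727, plus strand: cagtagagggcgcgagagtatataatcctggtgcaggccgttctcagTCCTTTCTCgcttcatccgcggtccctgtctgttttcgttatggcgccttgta
Snhg3, chr4:132353637-132353736, minus strand: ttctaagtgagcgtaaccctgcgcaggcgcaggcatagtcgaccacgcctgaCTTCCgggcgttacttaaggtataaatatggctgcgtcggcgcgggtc
Snhg1, chr19:8723437-8723536, plus strand: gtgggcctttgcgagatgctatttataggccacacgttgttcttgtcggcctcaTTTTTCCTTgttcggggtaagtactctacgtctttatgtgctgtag
Gas5, its second start, chr1:161035116-161035215, plus strand: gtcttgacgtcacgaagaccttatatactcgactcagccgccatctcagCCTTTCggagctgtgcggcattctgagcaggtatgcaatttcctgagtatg
Snhg5, chr9:88522848-88522947, minus strand: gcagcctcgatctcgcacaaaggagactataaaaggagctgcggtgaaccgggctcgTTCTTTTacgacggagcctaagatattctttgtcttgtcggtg
Snhg11, chr2:158375663-158375762, plus strand: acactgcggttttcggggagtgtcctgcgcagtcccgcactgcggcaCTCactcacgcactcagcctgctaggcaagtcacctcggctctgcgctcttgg
RefSeq promoter entries of 8 of the 10 genes, with 9 starts, were searched. Not shown are the start of Zfas1, a called host, and the first start of Gas5. Their longest runs were 4 and 3 bases. No entry was matched for Snhg6, and Epb41l4aos was left out of the sequence searches. A run of at least 8 pyrimidines stood at 2 of the 9 starts (22.2%), those of Snhg1 and Snhg12 with 9 bases each. The same held for 13.7% of all 32851 promoters and for 42.9% of 70 starts of ribosomal protein genes. The letters TATAAA, searched on both strands of the same window, were found at 4 of the 9 host starts (44.4%), those of Snhg1, Snhg3, Snhg5 and Snhg8. The same search found them in 4.94% of all promoters and at 5.71% of ribosomal protein starts. In Snhg1 the letters lay on the opposite strand, and in Snhg3 after the start. In Snhg5 and Snhg8 they lay before the start on the gene's own strand. These matches are of letters only.

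The hosts also differ in what they carry. GENCODE release 21 places 35 snoRNA models on the strand and within the bodies of the 10 genes: 10 in Gas5 (9 separate loci), 8 in Snhg1, 5 in Snhg12 (4 loci), 3 in Zfas1, 2 each in Snhg3, Snhg5 and Snhg11, and 1 each in Snhg6, Snhg8 and Epb41l4aos. The model in Epb41l4aos was left out of the search by sequence. Of the 34 models searched, 21 held the C and D box letters (TGATGA and CTGA), 6 an ACA 3 bases from the end, and 7 neither. The models of Snhg3, Snhg8 and Snhg11 whose values or hosts are described later read as follows in the GENCODE transcripts (build GRCm38), with the ACA box in capitals.
Snora73b in Snhg3, chr4:132352322-132352526, minus strand: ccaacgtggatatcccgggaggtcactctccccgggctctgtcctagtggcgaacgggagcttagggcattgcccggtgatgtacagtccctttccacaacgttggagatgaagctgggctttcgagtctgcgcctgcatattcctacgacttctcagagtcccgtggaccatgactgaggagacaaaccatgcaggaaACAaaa
Snora73a in Snhg3, chr4:132352775-132352979, minus strand: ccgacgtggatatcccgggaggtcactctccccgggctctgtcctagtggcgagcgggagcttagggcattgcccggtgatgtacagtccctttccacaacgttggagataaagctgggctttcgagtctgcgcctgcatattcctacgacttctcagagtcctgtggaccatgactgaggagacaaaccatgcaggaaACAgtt
Snora24 in Snhg8, chr3:123507937-123508066, minus strand: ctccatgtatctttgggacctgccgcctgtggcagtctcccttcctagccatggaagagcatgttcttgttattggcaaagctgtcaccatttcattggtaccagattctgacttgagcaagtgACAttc
Gm25129 in Snhg11, chr2:158379534-158379666, plus strand: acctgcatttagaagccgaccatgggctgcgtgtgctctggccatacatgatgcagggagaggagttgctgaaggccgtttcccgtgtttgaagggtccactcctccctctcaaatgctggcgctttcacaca
Snora73a and Snora73b are the same at 198 of 205 positions (96.6%), so reads of one cannot be cleanly told from reads of the other. No ACA was matched in Gm25129 at 3 bases from the end, the only place searched, though the model's last 3 bases read ACA.

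Total counts lay between 14864622 and 22704267 in the 12 libraries, and 3 loci that collect ribosomal RNA reads held 15.7% to 19.5% of each. Over 15 pan-neuronal markers, the summed level was 9788 to 11988 CPM (counts scaled to library size) in ASO mix, 8363 to 10030 in control ASO and 7490 to 9915 in untransfected libraries. The sum of 12 Schwann cell markers was 680 to 846, 604 to 668 and 837 to 1074 CPM in the same order of groups. For 9 satellite glia markers (Cdh19 is on both glial lists) it was 494 to 807, 481 to 654 and 462 to 733 CPM. The 10 fibroblast markers summed to 50.4 to 144 CPM with the mix and 94.5 to 221 with the control ASO, against 720 to 1001 CPM in untransfected cultures. For 7 mural cell markers the sums were 94.3 to 273, 105 to 163 and 300 to 512 CPM, for 7 endothelial markers 24.9 to 139, 39.8 to 138 and 39.1 to 160 CPM, and for 9 macrophage markers 48.6 to 54.6, 22.6 to 32.0 and 20.9 to 31.0 CPM. No marker was at 0 in all 4 libraries of any group.

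Snhg11 was by far the most abundant of the 10 when levels were set per length. In untransfected cultures it stood at 27.0 ± 4.00 CPM per kb of merged exon (SD, n = 4, as for all levels here). Gas5 followed at 6.30 ± 1.03, Epb41l4aos at 5.20 ± 0.929, Snhg8 at 4.98 ± 0.912 and Snhg6 at 4.56 ± 0.758 CPM per kb. Below them came Snhg5 at 3.87 ± 0.564, Snhg3 at 3.29 ± 0.644, Zfas1 at 3.15 ± 0.764, Snhg1 at 2.96 ± 0.422 and Snhg12 at 2.25 ± 0.535 CPM per kb. Only the step between Snhg11 and Gas5 separated neighbours in this order, and the ranges of every other pair of neighbours overlapped. With the length of the longest transcript in place of merged exons, Epb41l4aos moved from the third to the seventh place. The merged exons of several hosts include the introns and snoRNAs, because GENCODE lists transcripts that keep introns, so spliced and unspliced host RNA are counted together.

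In ASO mix cultures Snhg8 took the second place at 17.5 ± 4.36 CPM per kb, below Snhg11 at 29.8 ± 8.55 and above Gas5 at 8.39 ± 1.53. The Snhg8 libraries, 11.1 to 20.6 CPM per kb, overlapped those of Snhg11, 17.1 to 35.6, and not those of Gas5, 6.23 to 9.73. With the control ASO, Snhg11 stood at 33.3 ± 9.30, Gas5 at 5.91 ± 0.454 and Snhg8 at 5.76 ± 1.95 CPM per kb, and the ranges of Gas5 and Snhg8 overlapped. Averaged over all 12 libraries, Snhg11 lay at the 91.3 percentile of the genes tested by level per length and the other 9 hosts between 48.6 and 73.4. The highest of these 9 was Snhg8, whose average is raised by the mix libraries, since it lay below Gas5 in the means of the other groups.

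**Figure D1:**
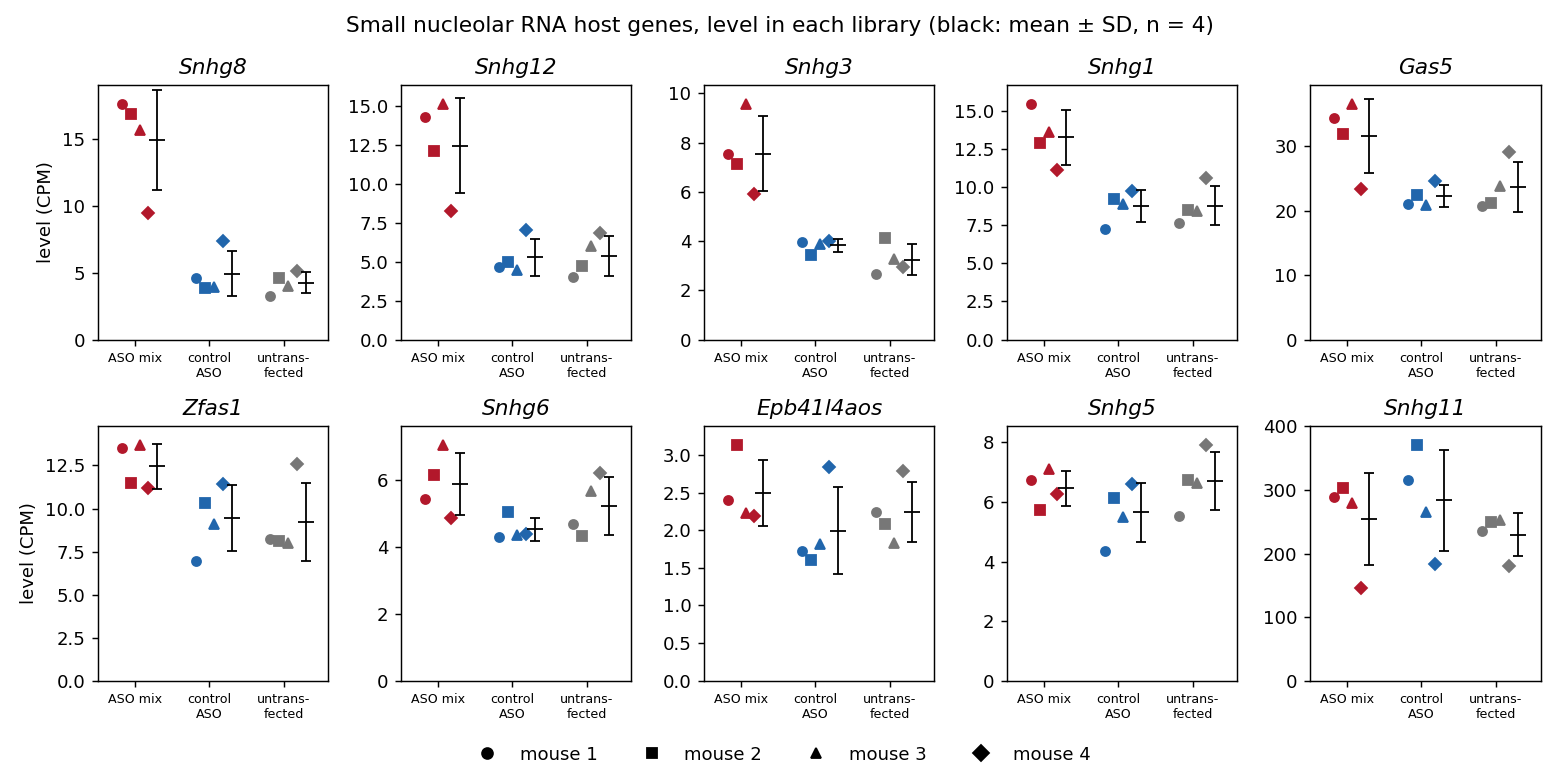
Level of each host gene (CPM, linear axis from 0) in each of the 12 libraries, with groups from left to right as ASO mix, control ASO and untransfected, 1 marker shape per mouse, and the mean ± SD of 4 libraries in black. For Snhg8, Snhg12, Snhg3 and Snhg1 all 4 ASO mix libraries lie above all 8 others. The share of all genes for which this holds is not given here. In the panels of Gas5 and Snhg8 the ASO mix library of mouse 4 is the lowest of its group.

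The first comparison asks what the GI-SINE ASO mix did beyond the control ASO. Relative to control ASO cultures, 7 of the 10 host genes rose with the mix and none fell, and 3 did not pass the test (edgeR quasi-likelihood test with mouse as a block, Benjamini-Hochberg adjusted p under 0.05 over 16831 genes). Of all tested genes, 27.3% were called higher and 28.8% lower, 56.2% in all. The median log2 fold change was 0.47 over the 10 hosts and -0.03 over all genes. Between the same groups 9 of 15 pan-neuronal markers were called higher and 2 lower, 7 of 12 Schwann cell markers were called lower and 2 higher, and 4 of 9 tested fibroblast markers lower and none higher. The Schwann cell sum was nonetheless higher with the mix, as was the macrophage sum, with 2 of 8 tested macrophage markers called higher and none lower. Abundant single genes weigh most in these sums. The Schwann cell marker Pmp22 had 588 CPM with the mix and 433 CPM with the control ASO, and the macrophage marker Cd68 41.8 and 19.7 CPM. The median log2 fold change was -0.71 over the Schwann cell markers and -0.19 over the tested macrophage markers. Of 9 satellite glia markers, 5 were called lower and 1 higher. In bulk cultures, fewer cells of a type and less RNA per cell cannot be told apart, and the part of cell composition was not tested.

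Snhg8 (ENSMUSG00000104960, chromosome 3, 123507552 to 123508404, minus strand), the host of Snora24, had the largest rise. It reached 17.6, 16.9, 15.7 and 9.43 CPM in the ASO mix libraries of mice 1 to 4, against 4.57, 3.83, 3.89 and 7.36 CPM in the control ASO libraries. The groups did not overlap, and mouse 4 was at once the lowest with the mix and the highest with the control. The log2 fold change was 1.64 ± 0.27 (SE; 3.12-fold, edgeR adjusted p = 0.000883).

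Snhg12 (ENSMUSG00000086290, chromosome 4, 132308623 to 132311024, plus strand), which holds the H/ACA snoRNA Snora16a among others, had 14.3, 12.1, 15.2 and 8.28 CPM with the mix, against 4.66, 5.01, 4.48 and 7.05 CPM with the control ASO. Here too the groups were apart and mouse 4 had the nearest values. The log2 fold change was 1.25 ± 0.23 (2.39-fold, edgeR adjusted p = 0.000828).

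Snhg3 (ENSMUSG00000085241, chromosome 4, 132348014 to 132353686, minus strand) holds Snora73a and Snora73b, H/ACA snoRNAs that act in the cutting of the ribosomal RNA precursor. Its levels were 7.55, 7.15, 9.58 and 5.90 CPM with the mix, against 3.95, 3.45, 3.89 and 4.02 CPM with the control ASO. The lowest mix library was still above the highest control library. The log2 fold change was 0.98 ± 0.15 (1.97-fold, edgeR adjusted p = 3.3e-05), the smallest p of the 10.

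Snhg1 (ENSMUSG00000108414, chromosome 19, 8723475 to 8726443, plus strand), a host of C and D box snoRNAs, had 15.4, 12.9, 13.6 and 11.1 CPM with the mix, against 7.23, 9.18, 8.90 and 9.71 CPM with the control ASO. Its groups did not overlap either, and its log2 fold change was 0.61 ± 0.13 (1.53-fold, edgeR adjusted p = 0.000599). These 4 genes were called higher under all 14 alternative settings, with log2 fold changes of 1.45 to 2.04 for Snhg8, 1.12 to 1.55 for Snhg12, 0.76 to 1.11 for Snhg3 and 0.44 to 0.74 for Snhg1. Single alternatives called 3373 to 5021 of all genes higher. The shares of all genes called higher in all 14, or with groups that do not overlap, are not given here.

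The rises of the other 3 called hosts were smaller and their groups overlapped. Gas5 (ENSMUSG00000053332, chromosome 1, 161034422 to 161038539, plus strand) is named for its accumulation in growth-arrested cells. It had 34.3, 31.8, 36.6 and 23.4 CPM with the mix, against 21.1, 22.5, 20.8 and 24.5 CPM with the control ASO. Mice 1 to 3 were well above the controls, and in mouse 4 the mix library was below its own control. The log2 fold change was 0.51 ± 0.15 (edgeR adjusted p = 0.0134), and any fit without 1 of mice 1 to 3 ended the call (0.44 with adjusted p = 0.0613 without mouse 1, 0.51 with 0.0543 without mouse 2, and 0.43 with 0.0790 without mouse 3).

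Zfas1 (ENSMUSG00000074578, chromosome 2, 167062934 to 167065862, plus strand), which starts back to back with the zinc finger gene Znfx1, had 13.5, 11.5, 13.7 and 11.2 CPM with the mix, against 6.96, 10.3, 9.11 and 11.4 CPM with the control ASO. The mouse 4 control library lay within the range of the mix libraries. Its log2 fold change was 0.42 ± 0.15 (edgeR adjusted p = 0.0241). It lost its call without mouse 1 (0.25, adjusted p = 0.206), without mouse 3 (0.39, adjusted p = 0.101), without the mouse block (0.40, adjusted p = 0.0591) and with scaling by library size alone (0.30, adjusted p = 0.0951).

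Snhg6 (ENSMUSG00000098234, chromosome 1, 9941959 to 9944118, minus strand), with 1 snoRNA model, had 5.45, 6.16, 7.05 and 4.87 CPM with the mix, against 4.30, 5.05, 4.37 and 4.39 CPM with the control ASO. Only the mouse 4 mix library fell below a control library, that of mouse 2. The log2 fold change was 0.37 ± 0.15 (edgeR adjusted p = 0.0375). It was no longer called in 6 of the 14 alternatives: without mouse 1 (0.38, adjusted p = 0.101), mouse 2 (0.41, 0.0589) or mouse 3 (0.29, 0.190), with library size scaling (0.25, 0.155), with DESeq2 (0.39, 0.0693) and with length and GC trends removed (0.18, 0.259).

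The 3 hosts that did not pass the test differed in sign. Epb41l4aos (ENSMUSG00000087590, chromosome 18, 33794892 to 33795986, plus strand), the least counted of the 10, had 2.40, 3.13, 2.23 and 2.19 CPM with the mix, against 1.73, 1.60, 1.81 and 2.84 CPM with the control ASO. Mice 1 to 3 were higher with the mix and mouse 4 was lower, and the log2 fold change was 0.36 ± 0.21 (edgeR adjusted p = 0.146), which became 0.60 (adjusted p = 0.0174) without mouse 4. Snhg5 (ENSMUSG00000097195, chromosome 9, 88521050 to 88522929, minus strand) had 6.75, 5.74, 7.10 and 6.27 CPM with the mix, against 4.35, 6.15, 5.49 and 6.61 CPM with the control ASO, and a log2 fold change of 0.21 ± 0.13 (edgeR adjusted p = 0.185). Its groups overlapped widely.

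Snhg11 (ENSMUSG00000044349, chromosome 2, 158375638 to 158386145, plus strand), a host known from neurons and annotated as protein coding, was the only one of the 10 with a negative value. It had 288, 303, 280 and 146 CPM with the mix, against 315, 371, 265 and 184 CPM with the control ASO. Both mouse 4 libraries were the lowest of their groups, and the groups overlapped. The log2 fold change was -0.17 ± 0.10 (edgeR adjusted p = 0.165). It was called lower with library size scaling (-0.29, adjusted p = 0.0299) and with no low-count filter (-0.18, adjusted p = 0.00800), while removal of length and GC trends brought it to 0.02.

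**Figure D2:**
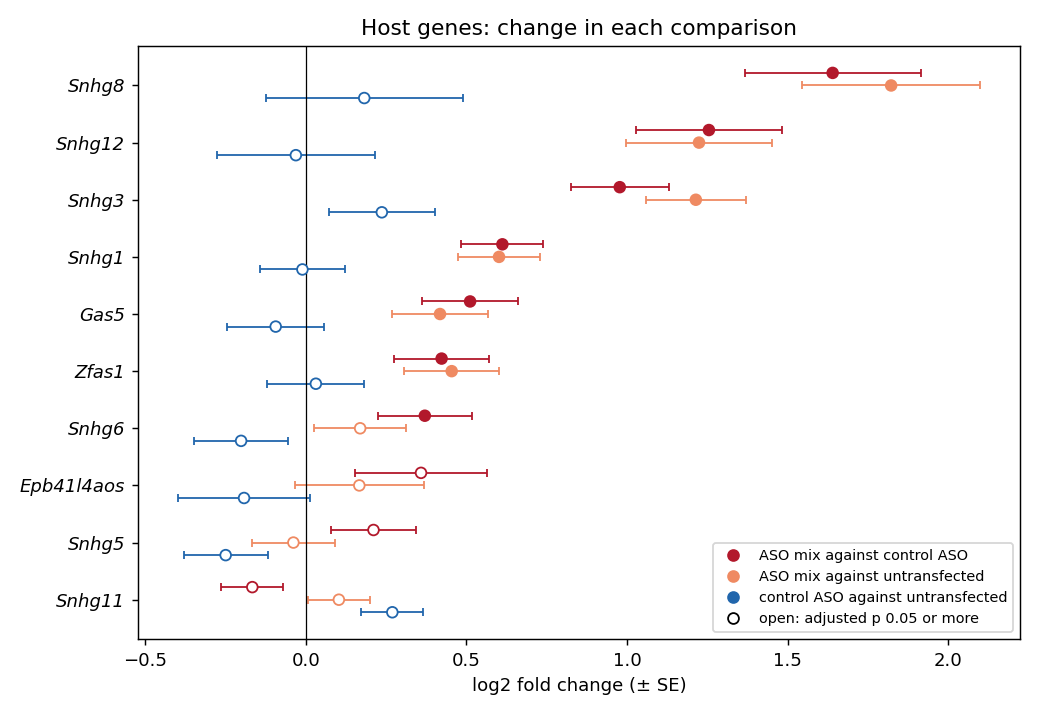
Log2 fold change (± SE from the edgeR fit) of each host gene in the 3 comparisons, with filled circles for an adjusted p under 0.05. In both comparisons of the ASO mix the values of Snhg8, Snhg12, Snhg3 and Snhg1 lie at 0.60 or above, while no value of the control ASO against untransfected cultures passes the test.

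Within mice, the rise was shared by mice 1 to 3 and small in mouse 4. The median log2 difference of the 10 hosts between the ASO mix and the control ASO library of 1 mouse was 0.82 in mouse 1, 0.50 in mouse 2 and 0.65 in mouse 3, against 0.06 in mouse 4. In 9 of the 10 hosts mouse 4 had the lowest of the 4 signed differences, with 0.36 for Snhg8, 0.23 for Snhg12, 0.56 for Snhg3 and 0.19 for Snhg1. These lowest values include -0.38 for Epb41l4aos and -0.33 for Snhg11, the latter the largest of the 4 in size. By size without regard to sign, a different measure, the same mouse moved least over all genes. The median absolute log2 difference over 16602 genes was 0.403, 0.403 and 0.376 in mice 1 to 3 and 0.245 in mouse 4. Without mouse 4, 8 of the 10 hosts were called higher, where 5021 of all 17001 tested genes were called higher and 5196 lower. The log2 fold changes in that fit were 2.04 for Snhg8, 1.55 for Snhg12 and 0.68 for Gas5. The marker sums of mouse 4 also differed from those of mice 1 to 3. Its endothelial sum was 139 CPM with the mix, 138 with the control ASO and 160 untransfected, against 24.9 to 52.3 CPM in mice 1 to 3. Its pan-neuronal and satellite glia sums were the lowest of each group and its fibroblast sum the highest. Its Schwann cell, mural and macrophage sums held no single rank. The part of cell composition was not tested, and whether the ASO mix lowered its target less in mouse 4 was not measured.

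**Figure D3:**
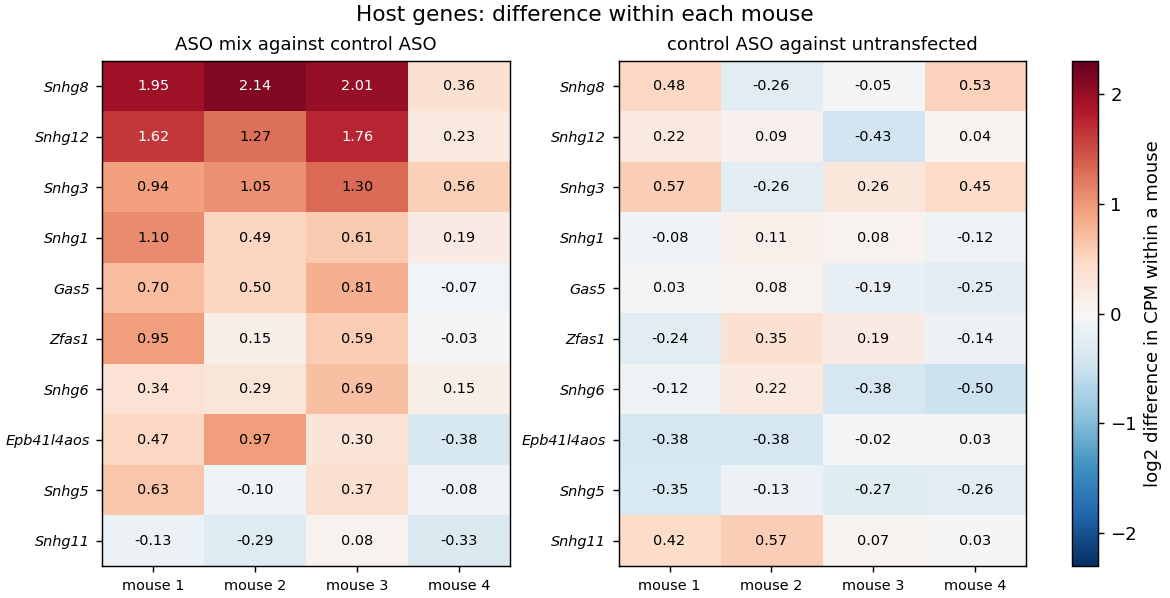
Log2 difference in CPM within each mouse for each host gene, ASO mix minus control ASO on the left and control ASO minus untransfected on the right, with red above 0, blue below 0 and the value in each cell. On the left, the column of mouse 4 holds no value above 0.56, while Snhg8 is between 1.95 and 2.14 in mice 1 to 3.

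Relative to untransfected cultures, 6 of the 10 hosts rose with the mix and none fell (30.1% of all genes were called higher and 31.1% lower, 61.2% in all). The median log2 fold change was 0.44 over the hosts and -0.02 over all genes. This comparison shares its ASO mix libraries with the first, so they are not separate evidence. In untransfected libraries of mice 1 to 4, Snhg8 had 3.28, 4.59, 4.02 and 5.09 CPM, Snhg12 4.00, 4.70, 6.04 and 6.84 CPM, Snhg3 2.65, 4.12, 3.26 and 2.95 CPM, and Snhg1 7.64, 8.51, 8.40 and 10.6 CPM. All of these lay below every ASO mix library of the same gene. How often this holds over all genes is not given here.

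The log2 fold changes of the mix over untransfected cultures were 1.82 ± 0.28 for Snhg8 (edgeR adjusted p = 0.000388), 1.22 ± 0.23 for Snhg12 (0.000753), 1.21 ± 0.15 for Snhg3 (2.24e-06) and 0.60 ± 0.13 for Snhg1 (0.000533). Zfas1 had 8.22, 8.09, 7.99 and 12.6 CPM without transfection, and its log2 fold change with the mix was 0.45 ± 0.15 (edgeR adjusted p = 0.0150). Gas5 had 20.7, 21.2, 23.8 and 29.1 CPM without transfection, and its log2 fold change with the mix was 0.42 ± 0.15 (edgeR adjusted p = 0.0307). Both overlapped, with mouse 4 the highest untransfected library of each, and both calls were lost without mouse 1, 2 or 3 (Gas5 0.31 to 0.36 with adjusted p 0.121 to 0.153, and Zfas1 adjusted p 0.0527 to 0.106). Gas5 was also not called with library size scaling (0.33, adjusted p = 0.0749) or with only the 2 groups in the fit (0.42, adjusted p = 0.0669), and without mouse 4 its value was 0.64.

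The remaining 4 hosts did not pass the test against untransfected cultures. Snhg6, with 4.67, 4.33, 5.68 and 6.20 CPM untransfected, had a log2 fold change of 0.17 ± 0.14 (edgeR adjusted p = 0.318). That of Epb41l4aos, with 2.25, 2.09, 1.83 and 2.78 CPM untransfected, was 0.17 ± 0.20, and that of Snhg5, with 5.53, 6.73, 6.63 and 7.91 CPM, was -0.04 ± 0.13. Snhg11 had 236, 250, 253 and 180 CPM untransfected and a log2 fold change of 0.10 ± 0.10 (edgeR adjusted p = 0.379). It was called higher without mouse 4 (0.22, adjusted p = 0.0122) and with length and GC trends removed (0.44, adjusted p = 0.00525).

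The third comparison asks what transfection of a control ASO did by itself. None of the 10 hosts passed the test (edgeR quasi-likelihood), with 1 at an unadjusted p under 0.05. Of all genes, 24.2% were called, 10.5% higher and 13.7% lower. DESeq2 and limma-voom each called 1. The median log2 fold change was -0.02 over the hosts and 0.03 over all genes. The host with the low p was Snhg11, with 315, 371, 265 and 184 CPM in control ASO libraries against 236, 250, 253 and 180 CPM in untransfected libraries, higher with the control ASO in 4 of 4 mice. Its log2 fold change was 0.27 ± 0.10 (edgeR adjusted p = 0.0655), and it was called in 6 of the 14 alternatives, among them the fit without mouse 4 (0.34, adjusted p = 0.00274). Of the other 9, the values lay between -0.25 ± 0.13 for Snhg5 and 0.24 ± 0.17 for Snhg3. For Snhg8 and Snhg12, which rose most with the mix, they were 0.18 ± 0.31 and -0.03 ± 0.24. Pan-neuronal markers were called higher in 4 of 15 cases and lower in none between the same groups, and 7 of 9 tested fibroblast markers and 9 of 12 Schwann cell markers were called lower. The part of cell composition in the Snhg11 value was not tested.

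Genes next to the hosts did not move as the hosts did in every case. Slc3a2, which codes for an amino acid transporter heavy chain and starts 106 bases from Snhg1 on the other strand, had 228 ± 14.0 CPM with the mix and 198 ± 8.82 CPM with the control ASO (log2 fold change 0.21 ± 0.06, edgeR adjusted p = 0.00423). It was no longer called without mouse 2 (0.14, adjusted p = 0.0628) or with library size scaling (0.09, adjusted p = 0.160), and against untransfected cultures it was 0.13 ± 0.06 (edgeR adjusted p = 0.0539). Rcc1, the exchange factor of the Ran GTPase, starts 81 bases from Snhg3 on the same strand and shares 135 exon bases with it, so some reads cannot be assigned to one of them. It had 36.6 ± 5.21 CPM with the mix and 34.5 ± 4.07 CPM with the control ASO, a log2 fold change of 0.08 ± 0.06 that did not pass the test (edgeR adjusted p = 0.287), beside 0.98 for Snhg3. Against untransfected cultures (31.1 ± 3.76 CPM) Rcc1 rose with the mix in 4 of 4 mice (0.23 ± 0.06, edgeR adjusted p = 0.00325), beside 1.21 for Snhg3, a call lost without the mouse block (0.24, adjusted p = 0.0917), with library size scaling (0.15, adjusted p = 0.0508) and with length and GC trends removed (0.11, adjusted p = 0.121).

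Zbtb37, a zinc finger gene on the other strand, starts 427 bases from the start of Gas5. Its body overlaps that of Gas5 by 428 bases, with no shared exon. Zbtb37 fell with the mix. It had 15.3 ± 1.11 CPM with the mix and 23.3 ± 2.41 CPM with the control ASO (log2 fold change -0.61 ± 0.08, edgeR adjusted p = 9.68e-06), where Gas5 rose, and -0.88 ± 0.08 against untransfected cultures (edgeR adjusted p = 5.98e-08). With length and GC trends removed these values were -0.35 and -0.42. Znfx1, which shares 82 exon bases with Zfas1 on the opposite strand, fell with the mix against the control ASO and not against untransfected cultures. It had 127 ± 13.8 CPM with the mix, 148 ± 9.02 CPM with the control ASO and 126 ± 4.24 CPM untransfected. The mix was lower than the control ASO (log2 fold change -0.22 ± 0.05, edgeR adjusted p = 0.00223). That call was absent without mouse 3 (-0.17, adjusted p = 0.0562) and with length and GC trends removed (-0.09, adjusted p = 0.0956). The control ASO was higher than untransfected cultures (0.23 ± 0.05, edgeR adjusted p = 0.00467), though not called without mouse 3 (0.21, adjusted p = 0.0548) or without the mouse block (0.23, adjusted p = 0.0555). The mix against untransfected cultures gave 0.01 ± 0.05 (edgeR adjusted p = 0.898), and 0.29 (adjusted p = 1.82e-05) with length and GC trends removed. The strand setting of the counting is not known here, and reads in the shared exons of Zfas1 and Znfx1 cannot be assigned with certainty. Gm17300, Mcmdc2 and Gm27494, which overlap Snhg3, Snhg6 and Zfas1, had too few counts to be tested.

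The snoRNAs themselves were barely counted. Of the 35 models, 31 overlap an exon of their host in some GENCODE transcript, and only 2 of these had any count, 281 in all over the 12 libraries. The 4 outside host exons all had counts, 521 in all. How reads in overlapping genes were counted is not known here, so a count of 0 cannot be read as a low level of the snoRNA. For Snora73b the counts were 37, 47, 22 and 17 with the mix, against 21, 34, 19 and 13 with the control ASO. Those of Snora73a were 34, 29, 13 and 18 with the mix, against 17, 28, 14 and 12 with the control ASO. Neither passed the test (log2 fold change 0.60 ± 0.29 with edgeR adjusted p = 0.0884 for Snora73b, and 0.51 ± 0.32 with adjusted p = 0.195 for Snora73a), although Snora73b was higher with the mix in 4 of 4 mice and Snora73a in 3 of 4. Snhg3 itself had 0.98 ± 0.15 in the same comparison.

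Gm25129, 1 of the 2 snoRNA models in Snhg11, fell with the mix. The other model, Gm25187, had 0 counts. Its counts were 11, 8, 8 and 6 with the mix, against 24, 28, 16 and 11 with the control ASO and 30, 21, 17 and 21 without transfection. The mix libraries did not overlap the others in CPM, and the log2 fold change was -1.11 ± 0.30 against the control ASO (edgeR adjusted p = 0.00424) and -1.31 ± 0.29 against untransfected cultures (edgeR adjusted p = 0.000796). Snhg11 itself had -0.17 ± 0.10 and 0.10 ± 0.10 in the same comparisons. In this model the libraries hold at most 30 counts each, and whether these are of the snoRNA or of Snhg11 introns cannot be told apart.

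Other genes of the snoRNA pathway did not share 1 direction. Of all tested genes, 27.3% were higher and 28.8% lower with the mix against the control ASO. Of 15 further noncoding hosts, 3 of which (Mir17hg, Dleu2 and Mirg) carry microRNAs, 12 were matched to the table and tested, and against the control ASO 6 rose and 2 fell with the mix (median log2 fold change 0.19). Snhg17 rose to 17.2 ± 2.07 CPM with the mix, against 9.22 ± 1.04 CPM with the control ASO (log2 fold change 0.90 ± 0.12, edgeR adjusted p = 1.06e-05). Mir17hg, the host of a microRNA cluster, had 5.18 ± 1.43 CPM with the mix and 2.08 ± 0.415 CPM with the control ASO (1.31 ± 0.19, edgeR adjusted p = 1.4e-05). Snhg9 had 15 to 26 counts per library with the mix and 0 to 4 with the control ASO (3.13 ± 0.50, edgeR adjusted p = 4.12e-05). Snhg14, the long host of the imprinted Ube3a antisense region, and Dleu2 fell by 0.51 ± 0.15 (edgeR adjusted p = 0.00889) and 0.60 ± 0.21 (0.0236) on the log2 scale, though with 1 mouse left out the list had 1 lower, or 0 without mouse 2. In the other comparisons the list had 8 higher and 1 lower (mix against untransfected) and 1 higher and 0 lower (control ASO against untransfected). Leaving out mouse 1 or 2 ended the single call in each of these counts of 1, and without mouse 4 the control ASO had 3 higher.

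Proteins that bind snoRNAs were split. Of 8 core proteins of the snoRNA particles, 4 rose and 2 fell with the mix against the control ASO (median 0.20). Fbl, the methyltransferase of the C and D box particles, had 10.3 ± 2.41 CPM with the mix and 4.98 ± 0.574 CPM with the control ASO (log2 fold change 1.06 ± 0.15, edgeR adjusted p = 1.12e-05). Its partner Nop58 had 16.2 ± 1.71 CPM with the mix and 25.3 ± 3.47 CPM with the control ASO (-0.64 ± 0.08, edgeR adjusted p = 5.74e-06). Snu13 (0.65 ± 0.08) and Nop10 (0.51 ± 0.08) also rose, and Nop56 (-0.31 ± 0.07) also fell. Of 18 assembly factors 16 were tested, of which 2 rose, Pih1d1 (0.36 ± 0.07) and Nufip1 (0.30 ± 0.09), and 8 fell, with Phax, an adaptor for the export and transport of small RNAs, at -0.54 ± 0.07 and Tcof1 at -0.54 ± 0.08 (median of the list -0.22). Without mouse 1 only 1 assembly factor rose. Of the core proteins 3 rose and 3 fell, and of the assembly factors 3 rose and 8 fell, with the mix against untransfected cultures. Between control ASO and untransfected cultures, 1 core protein rose and 1 fell, and 2 assembly factors rose and 1 fell, counts that were between 0 and 2 with any 1 mouse left out.

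Genes of nonsense-mediated decay, the pathway known to degrade many spliced host RNAs, moved in both directions, with a share of rises near that of all genes. Of 25 factors, 7 rose and 11 fell with the mix against the control ASO, where 27.3% of all tested genes rose and 28.8% fell (median log2 fold change -0.13, and -0.03 over all genes). Upf1, the helicase at its centre, had 334 ± 61.4 CPM with the mix and 167 ± 8.77 CPM with the control ASO (0.99 ± 0.08, edgeR adjusted p = 2.95e-07). Smg8, a regulator of the kinase that acts on Upf1, had 68.8 ± 6.99 CPM with the mix and 34.1 ± 1.58 CPM with the control ASO (1.02 ± 0.08, edgeR adjusted p = 2.51e-08). That kinase, Smg1, fell to 84.1 ± 4.43 CPM with the mix, against 123 ± 8.89 CPM with the control ASO (-0.55 ± 0.06, edgeR adjusted p = 1.72e-06), and Upf3b fell by 0.82 ± 0.12 on the log2 scale. Against untransfected cultures 6 rose and 13 fell with the mix, and with the control ASO 2 rose (1 without mouse 1, 2 or 3) and 5 fell. Without mouse 1 or mouse 3, 6 and 7 factors fell in place of 11 with the mix against the control ASO. These are RNA levels, and the activity of the pathway was not measured.

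The 80 cytosolic ribosomal protein genes moved in the direction of the hosts: 71 rose and none fell with the mix against the control ASO, with a median log2 fold change of 0.47, the value also found for the 10 hosts. Against untransfected cultures 55 rose and 2 fell (median 0.30), where 30.1% of all genes were called higher and 31.1% lower. Between control ASO and untransfected cultures none rose and 26 fell (median -0.17), where none of the 10 hosts was called. Of all genes, 10.5% were called higher and 13.7% lower between these groups. The count of 26 was 10, 17 and 16 without mice 1, 2 and 3, and 17 without the mouse block. Rplp0 had 412 ± 20.2 CPM with the mix and 264 ± 13.2 CPM with the control ASO (log2 fold change 0.64 ± 0.05, edgeR adjusted p = 5.6e-08). With library size scaling, 60 of the 80 rose and none fell against the control ASO.

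Protein-coding genes that hold a snoRNA moved in both directions. Of the 80 ribosomal protein genes, the 30 that hold a snoRNA model had 27 called higher (median 0.47), and of the 50 that hold none 44 were called higher (median 0.46). Of the 246 other protein-coding genes with a snoRNA model on their strand, 220 were tested, and 46 rose and 81 fell with the mix against the control ASO (median -0.12). Odc1, the first enzyme of polyamine synthesis, rose by 0.70 ± 0.06 (edgeR adjusted p = 1.35e-07), and Sash1 fell by 1.24 ± 0.09 (edgeR adjusted p = 2.49e-08) on the log2 scale. In the same group 43 rose and 103 fell with the mix against untransfected cultures. With the control ASO against untransfected cultures, 10 of all 250 tested protein-coding hosts rose (4, 3 and 1 without mice 1, 2 and 3) and 54 fell (32 and 35 without mice 2 and 3). The differences between these sets were not tested.

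**Figure D4:**
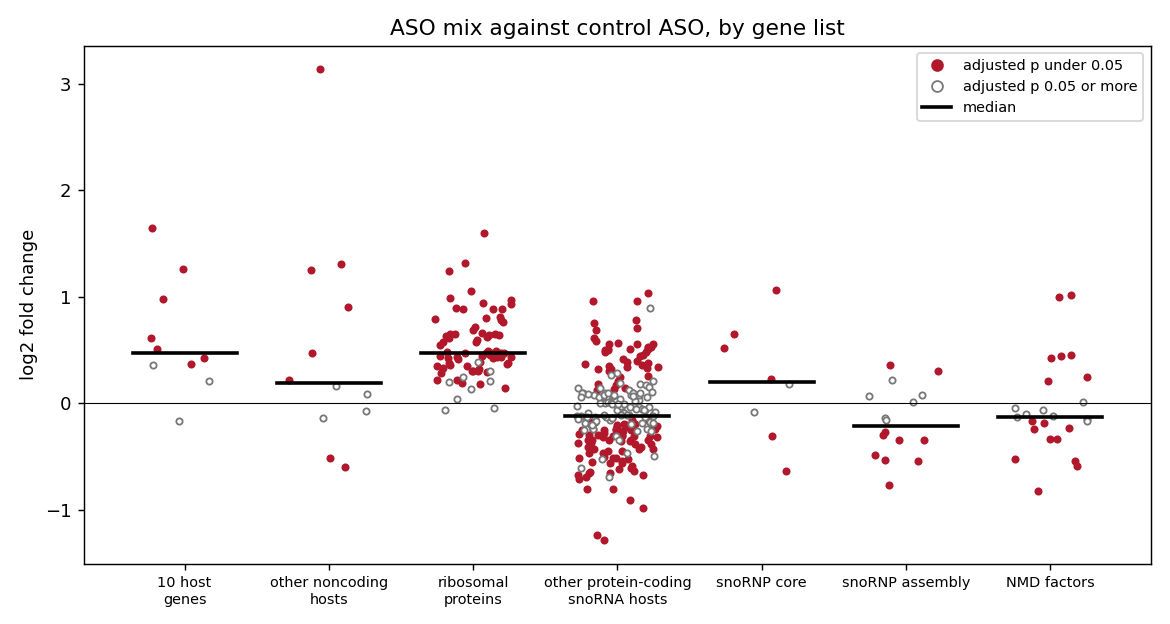
Log2 fold change of every tested gene, ASO mix against control ASO, for the 10 hosts and 6 lists of related genes; points are spread sideways for legibility, filled points have an adjusted p under 0.05, and bars are medians. The medians of the 10 hosts and of the ribosomal protein genes are both 0.47, and that of the other protein-coding snoRNA hosts is -0.12.

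Finally, genes were ranked by how closely their 12 values followed those of each host, as the root mean square difference of centred log2 CPM over 9328 or 9329 genes of sufficient level. The values of each gene come from the same 12 libraries, with their 3 treatments, 4 mice and different depths in common, so the ranking describes these libraries only. Gas5 was followed most closely by Rps19 (0.09) and Rpl13a (0.11), both ribosomal protein genes. Snhg5 was nearest to Rps25-ps1 and Rps27rt (0.11 each), and Snhg6 to Cgrrf1 and Rpl38-ps2 (0.11 each). Copies of ribosomal protein genes such as these share reads with their parent genes, and their counts are uncertain. Zfas1 was nearest to Snhg1 (0.14), with Nop53, a ribosome biogenesis factor, second (0.16).

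The difference to the nearest gene was largest for Snhg8 and Snhg12, the hosts that rose most. It is not scaled to a host's own spread over the 12 libraries, which was also largest for these hosts. For Snhg8 the nearest were the neuropeptide precursor Tac1 (0.24) and Impdh2 (0.25), an enzyme of guanine nucleotide synthesis, and for Snhg12 they were the nucleolar GTPase gene Gnl3 (0.20) and Ptp4a1 (0.22). Snhg3 was nearest to H2afx (0.16) and Ptger3 (0.17), Snhg1 to Zfp526 (0.11) and Tomm20 (0.12), and Epb41l4aos to Trp53i13 (0.17) and Zfp553 (0.18). Snhg11 was followed by the noncoding RNAs Miat (0.10) and Mirg (0.13). The log2 SD of the host itself over the 12 libraries was 0.91 for Snhg8 and 0.67 for Snhg12, against 0.30 for Gas5 and 0.22 for Snhg5.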

How the data were processed

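Per the labels' protocols, RNA was cleaned with RNeasy Mini columns, TruSeq Stranded RNA libraries were made, and a NovaSeq S4 read pairs of 150 bases. The authors deposited raw counts for each gene. Their processing steps, per the submitters' processing notes, used bcl2fastq 2.17, STAR and HTSeq with the builds GRCm38 and mm10. Annotation release and strand setting: not given in the sources used here. Symbols and coordinates came from GENCODE release 21 (48349 of 48795 IDs matched) and promoters from RefSeq. All 12 libraries entered 1 fit in edgeR 4.0.16 (R 4.3.3): low counts filtered by group, trimmed mean of M values scaling, robust quasi-likelihood with group and mouse as terms, two-sided, Benjamini-Hochberg adjusted over 16831 genes, called at 0.05. CPM uses the scaled library sizes.

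The series design states that libraries of 1 number share a mouse. Their deviations from group means correlated at 0.138 to 0.557, and 24 of 24 cases matched best with their own number. No 2 libraries of a group agreed within counting noise. Simulated counts for the mix against control comparison (16556 genes, 200 changed) gave calls for 58% of 1.5-fold and 80% of 2-fold changes and for 14 unchanged genes. Up to 3 genes per list and direction with the smallest p, genes overlapping a host or starting within 1000 bases of its start, and the 2 genes nearest in pattern (mean log2 CPM of at least 3) were named. The 10 genes and the lists were chosen with earlier results of these data known. Alternatives were DESeq2 1.42.0, limma-voom 3.58.1, other scalings and filters, length and GC trends removed, no mouse block, only the groups compared, and each mouse left out.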

Additional observations from a re-analysis of the deposited data

Results flagged for a closer look

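In 30 groups of 4 libraries, 4 held a value of a host gene far from the other 3 by Dixon's criterion at 95%, where chance gives about 1 in 20. Snhg11 had 146 CPM in the ASO mix library of mouse 4, and 280 to 303 CPM in the other 3 ASO mix libraries. Epb41l4aos had 2.84 CPM in the control ASO library of mouse 4, and 1.60 to 1.81 CPM in the other 3. Zfas1 had 12.6 CPM in the untransfected library of mouse 4, and 7.99 to 8.22 CPM in the other 3. Snhg6 had 5.05 CPM in the control ASO library of mouse 2, and 4.30 to 4.39 CPM in the other 3. Of these libraries, 3 are of mouse 4, 1 in each group.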

How the results depend on the processing

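Over 14 alternatives, 388 of 420 values of the 10 hosts kept their side of the threshold, 21 lost a call, 11 gained one, and no called value changed sign. Some values reported as not called did change sign, such as Snhg11 in the mix against the control ASO (-0.29 to 0.02) and Epb41l4aos (-0.13 to 0.31) and Snhg5 (-0.17 to 0.05) in the mix against untransfected cultures. With 1 mouse left out, 3723 to 5021 of all genes were called higher and 3667 to 5196 lower with the mix against the control ASO. The count of hosts changed in that comparison was 7, and 4 to 8 with 1 mouse left out. Against untransfected cultures it was 6, and 4 to 7 with 1 mouse left out. For the control ASO against untransfected cultures it was 0, and 0 to 1 with 1 mouse left out. It became 1 (Snhg11) with library size scaling, DESeq2, limma-voom, no filter and length and GC trends removed. Without the replicate block the counts of hosts were 6 for the mix against the control ASO, 6 for the mix against untransfected cultures and 0 for the control ASO against untransfected cultures, and the table-wide count for the control ASO against untransfected cultures was 2391, against 4081 with it (2540 without mouse 3). Library size scaling moved the median of all genes by -0.12 in the mix against the control ASO, where 34.0% of calls were then higher, against 48.7%. With length and GC trends removed, 55 ribosomal protein genes rose and 1 fell with the mix against the control ASO. The cause of these shifts was not tested. At this depth, simulated 1.5-fold changes were called in 58% of cases. The simulation changed 200 of 16556 genes, while 56.2% of tested genes were called in the data, so that share may differ for the real comparison.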
